A study of Rattus norvegicus with 19 samples.

Results

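Genes widely used as markers of astrocytes (5 of the 30560 genes counted) were followed through the paraventricular nucleus (PVN) of hypertensive and normotensive rats. They were taken by their Ensembl gene identifiers: Gfap (ENSRNOG00000002919), Aqp4 (ENSRNOG00000016043), S100b (ENSRNOG00000001295), Slc1a2 (ENSRNOG00000005479) and Slc1a3 (ENSRNOG00000016163). All 5 were present in the table and all 5 were above the expression filter in every comparison. The rule that takes them uses no measured value, although earlier results of these data were known when they were chosen. The PVN is the hypothalamic nucleus that joins hormone release to the sympathetic control of blood pressure. RNA came from bilateral PVN punches of 4 male and 5 female Wistar rats and of 5 male and 5 female SHR, all aged 14 weeks and all carrying an implanted blood pressure transmitter, with the females recorded in dioestrus. The spontaneously hypertensive rat (SHR) is an inbred strain whose blood pressure rises without treatment, and the Wistar rat served as the normotensive control. No drug or other treatment separated the groups, so each comparison was of strain within a sex or of sex within a strain.

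Astrocytes are the glial cells that take up transmitter and potassium around synapses and wrap blood vessels with their endfeet. In the PVN they border the neurons that secrete vasopressin and oxytocin, and their processes are known to retract or extend with the hormonal state of the animal. Gfap encodes the intermediate filament of the astrocyte skeleton, whose level classically rises when astrocytes become reactive. Aqp4 encodes the water channel concentrated in the endfeet on vessels. S100b encodes a calcium-binding protein that astrocytes secrete and that some oligodendrocytes also make. Slc1a3 (GLAST) and Slc1a2 (GLT-1) encode the glutamate transporters that clear this transmitter from the extracellular space, and GLT-1 RNA can also occur in some neurons. In a bulk punch, fewer astrocytes and less of an RNA per astrocyte cannot be told apart.

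The stretch just before the start of transcription is shown for S100b and Slc1a3, whose levels varied together between animals, and for Gfap. Among the 5 genes, Gfap had its highest Pearson's r with Aqp4 (0.796, permutation adjusted p = 0.0557), whose stretch is not shown. The genes shown were chosen after these correlations had been seen. Each run holds the 100 bases before the start that RefSeq lists first, written 5′ to 3′ on the strand of the gene, in build GRCr8. Capitals mark TTGGC, a core site of nuclear factor I (a family of factors that act in astrocyte differentiation), or its reverse complement GCCAA.
Gfap, chr10:88361662-88361761, minus strand: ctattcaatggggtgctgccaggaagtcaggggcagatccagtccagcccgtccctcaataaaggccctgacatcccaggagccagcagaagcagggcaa
S100b, chr20:12381082-12381181, minus strand: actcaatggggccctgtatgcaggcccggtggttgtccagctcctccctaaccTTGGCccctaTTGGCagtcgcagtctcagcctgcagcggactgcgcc
Slc1a3, chr2:59557809-59557908, minus strand: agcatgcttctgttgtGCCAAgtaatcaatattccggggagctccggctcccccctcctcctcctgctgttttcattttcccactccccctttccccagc
S100b held 2 matches on its own strand, beginning at positions -47 and -37 (the base just before the start is -1), and Slc1a3 held 1 on the opposite strand at position -84. Gfap, Aqp4 and Slc1a2 held no match in the 250 bases before the start. Over the 250-base windows of 27457 RefSeq genes, 40.3% held at least 1 match on either strand, so the match is a common one and is given as a description only. Of 5 further motifs searched on both strands, GGGCGG occurred once in Aqp4 (32.4% of all windows) and ACAAT once in S100b (29.6%). None of the 5 windows held the TATA box letters TATAAA, which 13.1% of all windows held. The AP-1 letters TGANTCA were likewise in none of the 5 and in 6.36% of all windows. The STAT letters TTCNNNGAA were in none of the 5 and in 7.52% of all. The first 100 bases before the start were 59% G and C in Gfap, 64% in S100b, 56% in Slc1a3, 74% in Slc1a2 and 44% in Aqp4, with a median of 54% over all windows. RefSeq lists 3 starts for Slc1a3 and 2 each for Slc1a2 and Aqp4, of which only the first listed was searched, and gene counts do not tell which of them was used.

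Levels are given as CPM, the counts of a gene relative to the library total, scaled for library composition by the trimmed mean of M values (TMM). Library totals ran from 44943945 to 58793511 counts, and each gene drew between 7150 and 77208 counts in a library, so that counting error was between 0.36% and 1.18% of a value. Of the small counts (1 to 100) in the table, 73.9% were even, which may make the true number of counted fragments lower and the counting error larger. By mean CPM over all libraries, 43 genes stood above S100b, 76 above Slc1a3, 110 above Aqp4, 314 above Gfap and 797 above Slc1a2, a ranking that is not corrected for gene length. Symbols of other genes are not paired with the identifiers, so markers of neurons and other glia, which would show what else a punch held, were not analysed here. The first principal component of the rat-to-rat deviations over all genes tested (27.5% of their variance), the library total and the replicate number were instead set against each astrocyte gene, with the results given with the correlations.

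Aqp4 was lower in SHR than in Wistar rats of both sexes. In Wistar males, Aqp4 was at 933, 958, 903 and 834 CPM, with a mean of 907 ± 53.6 (SD, n = 4). In SHR males it was at 649, 678, 685, 642 and 630.3 CPM, a mean of 657 ± 23.5 (SD, n = 5). Every SHR male lay below every Wistar male. Wistar females held 788, 808, 966, 1112 and 852 CPM (mean 905 ± 135, SD, n = 5). SHR females held 685, 688, 558, 683 and 588 CPM (mean 641 ± 62.5, SD, n = 5), again all below the lowest Wistar rat of their sex. The SHR mean was 72.4% of the Wistar mean in males and 70.8% in females. By edgeR's quasi-likelihood test the log2 fold change was -0.47 in males (SE 0.0552, 95% interval -0.59 to -0.35, adjusted p = 0.000384) and -0.51 in females (SE 0.103, interval -0.73 to -0.28, adjusted p = 0.0255). The male call held without any 1 library (adjusted p at most 0.00246), whereas the female call was lost without Wistar female 3 or without any 1 of the 5 SHR females (adjusted p 0.0507 to 0.0734), the log2 fold change then lying between -0.53 and -0.45.

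S100b was also lower in SHR females, and was not called in males. In SHR females S100b was at 1142, 1131, 961, 1097 and 1023 CPM (mean 1071 ± 77.3, SD, n = 5). In Wistar females it was at 1380.3, 1459.6, 1576, 1471 and 1202 CPM (mean 1418 ± 139, SD, n = 5). These ranges did not overlap. Wistar males held 1474, 1392, 1395 and 1171 CPM (mean 1358 ± 130, SD, n = 4) and SHR males 1194, 1246, 1259.9, 1127 and 1266 CPM (mean 1219 ± 58.7, SD, n = 5), so that the male ranges overlapped through Wistar male 5. The SHR mean was 75.5% of the Wistar mean in females and 89.7% in males. In females the log2 fold change was -0.41 (SE 0.0845, interval -0.60 to -0.23, edgeR adjusted p = 0.0263). In males it was -0.16 (SE 0.0705, interval -0.31 to -0.0034, edgeR adjusted p = 0.165), and of the libraries left out in turn it passed only without Wistar male 5 (adjusted p = 0.0301). The female call was lost without Wistar female 2 or 3 or SHR female 1, 2, 4 or 5 (adjusted p 0.0533 to 0.0649).

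Gfap was lower in SHR males, with no overlap between the strains. In Wistar males Gfap was at 381, 416, 373 and 363 CPM (mean 383 ± 23.1, SD, n = 4). In SHR males it was at 308, 341, 288, 307 and 307 CPM (mean 310.2 ± 19.04, SD, n = 5), 81.0% of the Wistar mean. The log2 fold change was -0.30 (SE 0.0594, interval -0.43 to -0.18, edgeR adjusted p = 0.00767), and the call held without any 1 library (adjusted p at most 0.0279). It was lost with all 4 groups in a single fit (edgeR adjusted p = 0.464) and under Bonferroni adjustment (edgeR adjusted p = 1, DESeq2 adjusted p = 0.0744). Among females, 1 rat set the comparison. Wistar females held 301, 350.0, 332, 971 and 402 CPM, a mean of 471 ± 282 (SD, n = 5) that became 346 ± 42.2 (SD, n = 4) without the rat at 971 CPM. SHR females held 356, 355, 232, 330 and 296 CPM (mean 314 ± 52.0, SD, n = 5), within or below the range of the other Wistar females. The log2 fold change in females was -0.59 (SE 0.288, interval -1.22 to 0.036, edgeR adjusted p = 0.317). Without the rat at 971 CPM, Wistar female 4, it was -0.14 (edgeR adjusted p = 0.584). The same library also held the highest Aqp4 level of all 19, 1112 CPM, while its S100b, Slc1a2 and Slc1a3 levels lay inside the range of the other Wistar females.

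**Figure D1:**
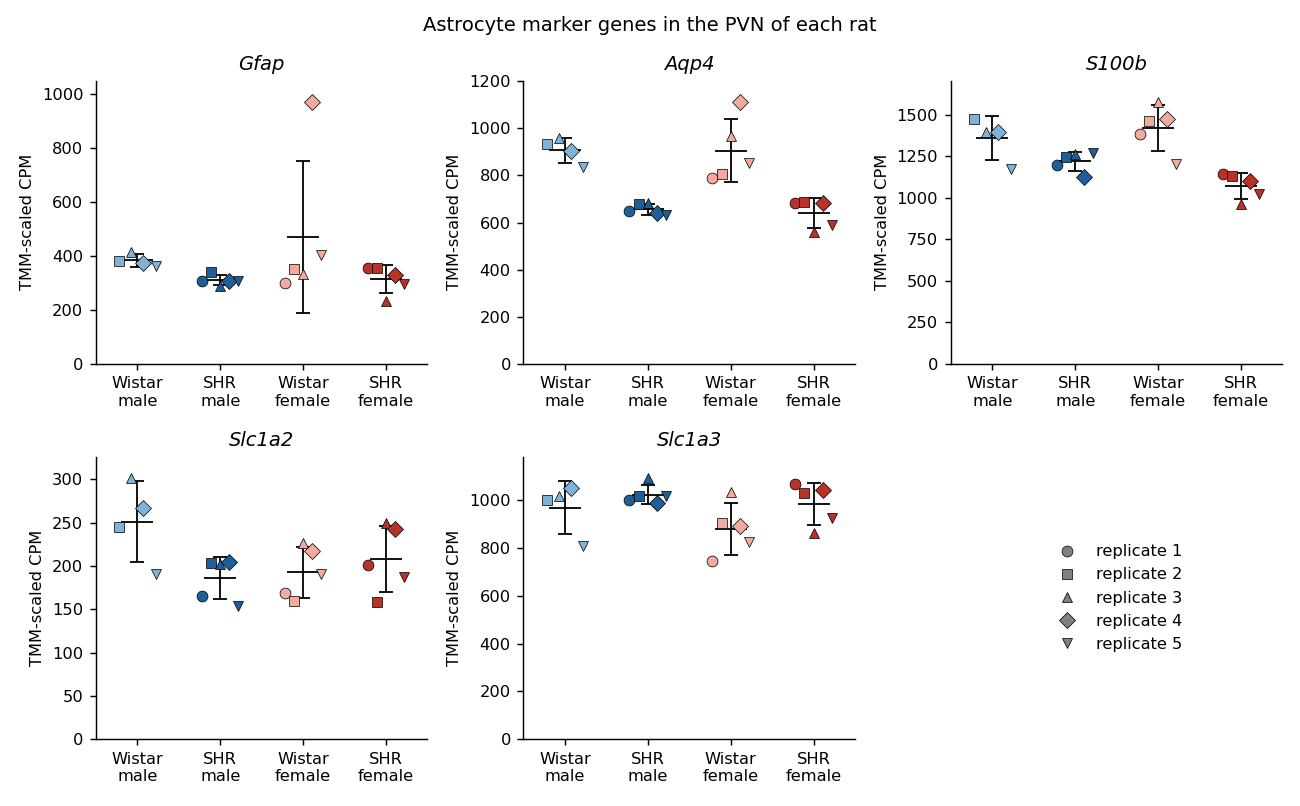
TMM-scaled CPM (vertical axes, starting at 0) of the 5 astrocyte marker genes in each rat, 1 panel per gene and 1 column per group. Symbols are rats by replicate number, horizontal bars are group means and error bars are SD. Gfap and Aqp4 in males and Aqp4 and S100b in females have no overlap between strains, and Wistar female 4 stands at 971 CPM for Gfap.

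Slc1a3 was not called in either sex. It was at 997, 1015, 1051 and 806 CPM in Wistar males (mean 967 ± 110.0, SD, n = 4) and at 998, 1017, 1092, 986 and 1014 CPM in SHR males (mean 1021 ± 41.4, SD, n = 5). It was at 743, 901, 1033, 889.5 and 822 CPM in Wistar females (mean 878 ± 107, SD, n = 5) and at 1065, 1028, 859, 1038 and 922 CPM in SHR females (mean 983 ± 87.9, SD, n = 5). The strains overlapped in both sexes. The log2 fold change of Slc1a3 was 0.08 in males (interval -0.08 to 0.24, edgeR adjusted p = 0.52) and 0.15 in females (interval -0.05 to 0.36, edgeR adjusted p = 0.431). In each sex this interval lay wholly above that of Aqp4.

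Slc1a2 was lower in SHR males, in a call that several single libraries decided, and was not called in females. It was at 245, 302, 267 and 191 CPM in Wistar males (mean 251 ± 46.6, SD, n = 4) and at 165, 204, 202, 205 and 154 CPM in SHR males (mean 186 ± 24.6, SD, n = 5). Wistar male 5 lay among the SHR males. Wistar females held 169, 159.7, 227, 217 and 191 CPM (mean 193 ± 29.3, SD, n = 5) and SHR females 201, 159, 249, 242 and 188 CPM (mean 208 ± 37.9, SD, n = 5), with full overlap. The log2 fold change was -0.43 in males (SE 0.123, interval -0.70 to -0.17, edgeR adjusted p = 0.0392) and 0.10 in females (SE 0.132, interval -0.19 to 0.39, edgeR adjusted p = 0.739). The male call was lost without any 1 of Wistar males 2, 3 and 4 and SHR males 1, 3 and 5 (adjusted p 0.0633 to 0.109), and with all 4 groups in a single fit (edgeR adjusted p = 0.0677).

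In males 3 of the 5 genes were therefore called, all lower in SHR, where 12% of 17461 genes tested were called and 6.9% were called lower. In females 2 of the 5 were called, both lower in SHR, where 2.32% of 17404 genes tested were called and 1.42% were called lower. The median log2 fold change of the 5 genes was -0.30 in males and -0.41 in females, with a median close to 0 over all genes tested (-0.0036 and -0.0031). Without Wistar female 4, the median of the 5 genes in females was -0.14. SHR and Wistar ranges that did not overlap, with SHR lower, were found for 2 of the 5 genes in each sex, against 7.62% of 17432 genes in males and 2.98% in females. With both sexes in an additive fit of strain and sex, chosen after the data had been seen, Aqp4 (log2 fold change -0.48, adjusted p = 1.46e-05) and S100b (-0.29, adjusted p = 0.00271) were called by edgeR, and 7.56% of 17432 genes were called lower in SHR.

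**Figure D2:**
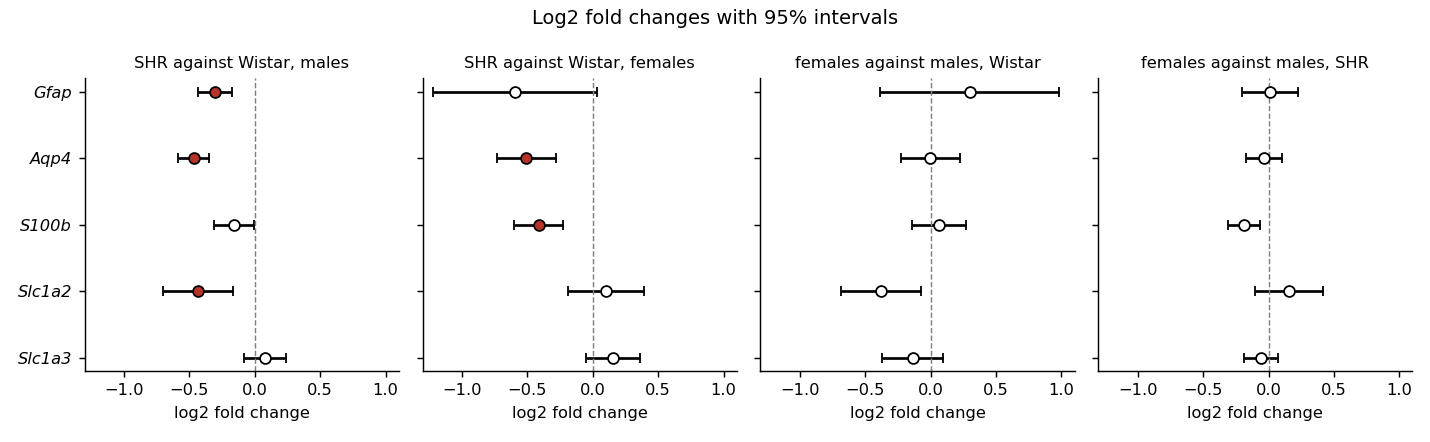
Log2 fold changes (horizontal axes) with 95% intervals of the 5 astrocyte marker genes from edgeR in 4 comparisons, with filled points where the adjusted p was under 0.05. Filled points are Gfap, Aqp4 and Slc1a2 in males and Aqp4 and S100b in females, all below 0 (lower in SHR), and no point is filled in the comparisons of sex.

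Between the sexes no astrocyte marker gene was called in either strain. In Wistar rats, edgeR called 0 of the 5 genes (1 at an unadjusted p under 0.05) and DESeq2 called 0, where edgeR called 0.0629% of 17490 genes (4.08% unadjusted) and DESeq2 0.114%. The gene under the unadjusted threshold was Slc1a2, at 251 CPM in males and 193 CPM in females, with a log2 fold change of -0.38 (interval -0.69 to -0.08, unadjusted p = 0.019, edgeR adjusted p = 0.909). In SHR rats, edgeR and DESeq2 again called 0 of the 5 (1 at an unadjusted p under 0.05), where edgeR called 0.0694% of 17285 genes (14.9% unadjusted) and DESeq2 1.73%. Here the gene was S100b, at 1219 CPM in males and 1071 CPM in females, with a log2 fold change of -0.19 (interval -0.31 to -0.06, unadjusted p = 0.00562, edgeR adjusted p = 0.199). For Aqp4 the difference between sexes was bounded closely, with log2 intervals of -0.23 to 0.23 in Wistar rats and -0.17 to 0.10 in SHR. No gene of the 5 had ranges that separated the sexes in either strain.

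Whether the strain difference itself differed between the sexes was tested as an interaction over all 19 libraries. No astrocyte marker gene was called by edgeR or DESeq2, where edgeR called 0% of 17432 genes (13.4% at an unadjusted p under 0.05) and DESeq2 0.207%. At an unadjusted p under 0.05 stood 2 of the 5, in opposite directions. For Slc1a2 the log2 fold change of SHR against Wistar was 0.54 higher in females than in males (SE 0.199, interval 0.13 to 0.96, unadjusted p = 0.0133, edgeR adjusted p = 0.323). For S100b the interaction was -0.25 (SE 0.108, interval -0.48 to -0.022, unadjusted p = 0.0333, edgeR adjusted p = 0.353). For Aqp4 it was -0.03 (SE 0.123, interval -0.29 to 0.22), and the log2 fold changes in the sexes lay close to each other. The difference between sexes in Gfap, -0.28 with an interval of -0.98 to 0.42, was not resolved. Each group entered both a comparison of strain and a comparison of sex, so these comparisons share libraries.

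The ratio of 2 of the genes within a library does not depend on the library total, and it was computed for all 10 pairs after the levels had been seen, as a description with no test. It is compared here between libraries for the same pair, not between genes. The ratio of Aqp4 to Slc1a3 separated the strains in both sexes. It was 0.936, 0.944, 0.86 and 1.04 in Wistar males (mean 0.944 ± 0.072, SD, n = 4) and 0.65, 0.667, 0.627, 0.651 and 0.622 in SHR males (mean 0.643 ± 0.0187, SD, n = 5). In females it was 1.06, 0.896, 0.935, 1.25 and 1.04 in Wistar (mean 1.04 ± 0.138, SD, n = 5) and 0.643, 0.67, 0.65, 0.658 and 0.638 in SHR (mean 0.652 ± 0.0127, SD, n = 5). All 10 SHR rats thus lay between 0.622 and 0.67, and all 9 Wistar rats at 0.86 or above. The coefficient of variation of this ratio was 2.90% in SHR males and 1.95% in SHR females, against 7.63% and 13.3% in Wistar males and females. Other ratios did not all follow: for Aqp4 to Slc1a2 it was 11.6% in SHR and 14.4% in Wistar males, but 24.3% and 7.84% in females. Over all genes tested, edgeR's median biological coefficient of variation was 0.109 in the fit of SHR rats and 0.146 in that of Wistar rats. In the fits of both strains it was 0.109 for males and 0.143 for females. The higher values thus came from the fits that held Wistar females, and Wistar males did not raise it above that of SHR rats.

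The ratio of S100b to Slc1a3 separated the strains in both sexes as well. Among Wistar males its mean was 1.41 ± 0.0702 (SD, n = 4), against 1.19 ± 0.0451 (SD, n = 5) among SHR males. Among females it was 1.62 ± 0.151 (SD, n = 5) for Wistar and 1.09 ± 0.0258 (SD, n = 5) for SHR. The highest SHR values were 1.25 in males and 1.12 in females, and the lowest Wistar values 1.33 and 1.46. SHR females (1.06 to 1.12) also lay below SHR males (1.14 to 1.25). In all, 5 of the 10 ratios separated the strains in males and 2 of 10 in females. Over all ratios of a tested gene to 1 of the 5 genes, 28.8% separated the strains in males and 17.6% in females, so the share in females (2 of 10) was near the background and is no result about these genes. The sexes were separated by 1 of 10 ratios in Wistar rats (background 1.76%) and by 2 of 10 in SHR (background 2.69%). Ratios that share a gene are not independent, and these counts, with the 5 of 10 in males, were not tested against the background. The ratio of Gfap to Aqp4, the 2 genes that were lower in SHR males without overlap, did not separate any of these groups.

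**Figure D3:**
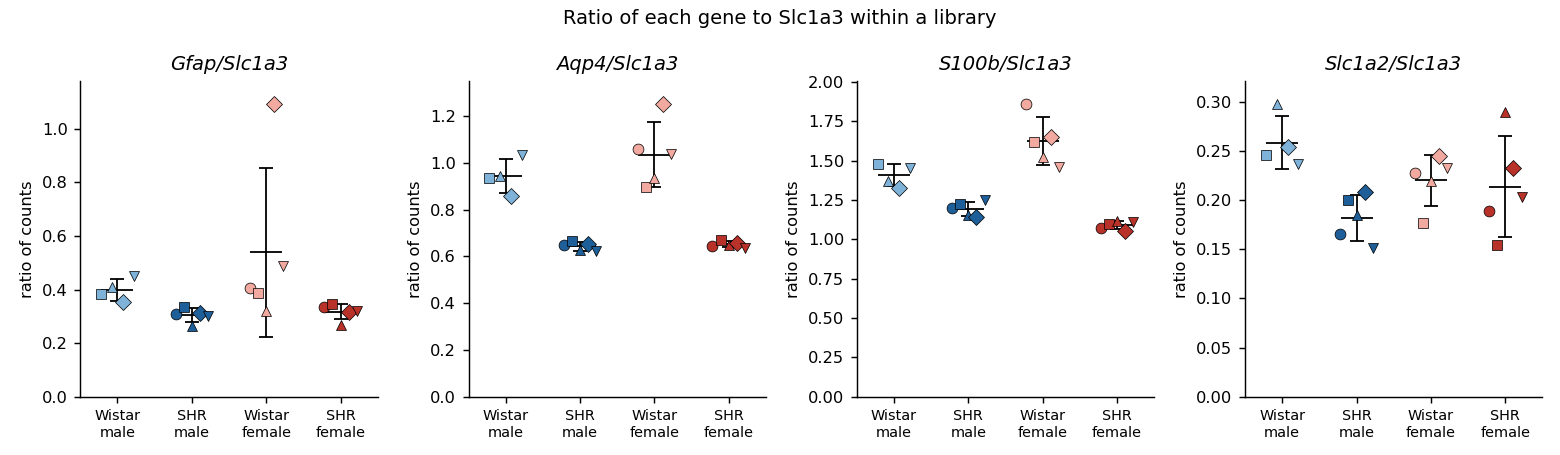
Ratio of the counts of Gfap, Aqp4, S100b and Slc1a2 to those of Slc1a3 within each library (vertical axes, starting at 0) in the 4 groups. Symbols are rats by replicate number, horizontal bars are means and error bars are SD. For Aqp4 all 10 SHR rats lie between 0.622 and 0.67, below all 9 Wistar rats.

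The last question was whether the 5 genes varied together between rats of 1 group. The group mean was subtracted from the log2 level of each gene, and the remaining deviations were correlated over the 19 rats, with p-values from permutation within groups and adjustment over the 25 relations computed. S100b and Slc1a3 moved together (Pearson's r = 0.812, permutation p = 0.00171, adjusted p = 0.0427; Spearman's rho = 0.775, permutation p = 0.00122, adjusted p = 0.0241), and r was 0.811 without the 2 rats farthest from the median of S100b. Gfap and Aqp4 gave r = 0.796 (permutation p = 0.00446, adjusted p = 0.0557) and rho = 0.707 (permutation p = 0.00348, adjusted p = 0.029), and r fell to 0.595 without Wistar females 4 and 1. Aqp4 and Slc1a3 gave r = 0.681 (permutation p = 0.00918, adjusted p = 0.0765) and rho = 0.753 (permutation p = 0.00193, adjusted p = 0.0241), with r = 0.777 without the 2 farthest rats. Aqp4 and S100b gave r = 0.604 (permutation p = 0.0242, adjusted p = 0.151) and rho = 0.7 (permutation p = 0.00654, adjusted p = 0.0409), with r = 0.605 without the 2 farthest rats. Of these 4 pairs, S100b with Slc1a3 was the one that passed on both measures.

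The other 6 pairs, which include all 4 with Slc1a2, gave r between 0.142 and 0.385, and none passed the threshold on r or rho (for r, permutation p 0.137 to 0.655, adjusted p 0.569 to 0.821). The median r of the 10 pairs was 0.376. As a measure of how close the partners were, 61 of the other 17431 genes had a higher r with Gfap than Aqp4 did, and 35 had a higher r with Aqp4 than Gfap did. For S100b, 85 genes stood above Slc1a3, and for Slc1a3, 63 genes stood above S100b. The pairs that passed on rho alone through Aqp4 with Slc1a3 or S100b ranked lower. For Aqp4, 252 genes stood above Slc1a3 and 602 above S100b. Above Aqp4 stood 454 genes for Slc1a3 and 1219 for S100b. The genes of highest r with each of the 5 are not named, as their symbols are not paired with the identifiers.

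**Figure D4:**
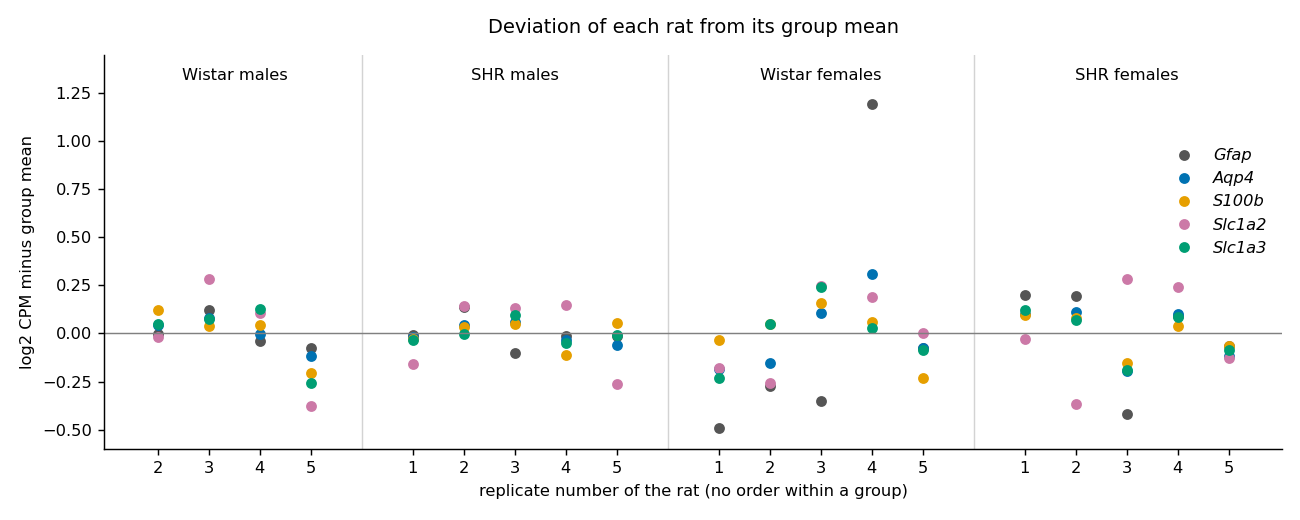
Deviation of each rat from its group mean (vertical axis, log2 CPM) for the 5 astrocyte marker genes, with rats along the horizontal axis grouped by strain and sex. In Wistar male 5, Wistar female 1, SHR male 1 and SHR female 5 the 5 genes lie below 0 together. In SHR female 3 Slc1a2 lies above 0 and the other 4 below, and in Wistar female 4 Gfap lies far above the rest.

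With males and females of a strain pooled, the pattern of Slc1a2 differed in sign between the strains, a difference that was not tested. Over the 10 SHR rats the 6 pairs without Slc1a2 gave r between 0.77 and 0.944, and the 4 pairs with Slc1a2 gave r between -0.44 and -0.15. Over the 9 Wistar rats the 4 pairs with Slc1a2 gave r between 0.393 and 0.776, while the 6 others lay between 0.104 and 0.81. The pairs with Slc1a2 also differed by sex. With the strains pooled, they gave r between 0.43 and 0.832 in males and between -0.061 and 0.28 in females. Values of r within a single sex of SHR were not computed, so strain and sex are not separated here. SHR female 3, with the lowest Gfap, Aqp4, S100b and Slc1a3 and the highest Slc1a2 of its group, weighed on the SHR values. Without it, r with Slc1a2 in SHR became 0.29 for Aqp4, 0.24 for Slc1a3, -0.06 for Gfap and -0.19 for S100b. Among the pairs without Slc1a2 in SHR, leaving out the same rat lowered r from 0.77 to 0.404 for Gfap and Slc1a3, from 0.778 to 0.528 for Gfap and S100b and from 0.845 to 0.663 for Gfap and Aqp4. The 3 pairs among Aqp4, S100b and Slc1a3 gave 0.68 to 0.887 without it. In Wistar rats, r of Gfap and Aqp4 fell from 0.81 to 0.319 without Wistar female 4, and r of S100b and Slc1a2 from 0.542 to 0.217 without Wistar male 5.

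**Figure D5:**
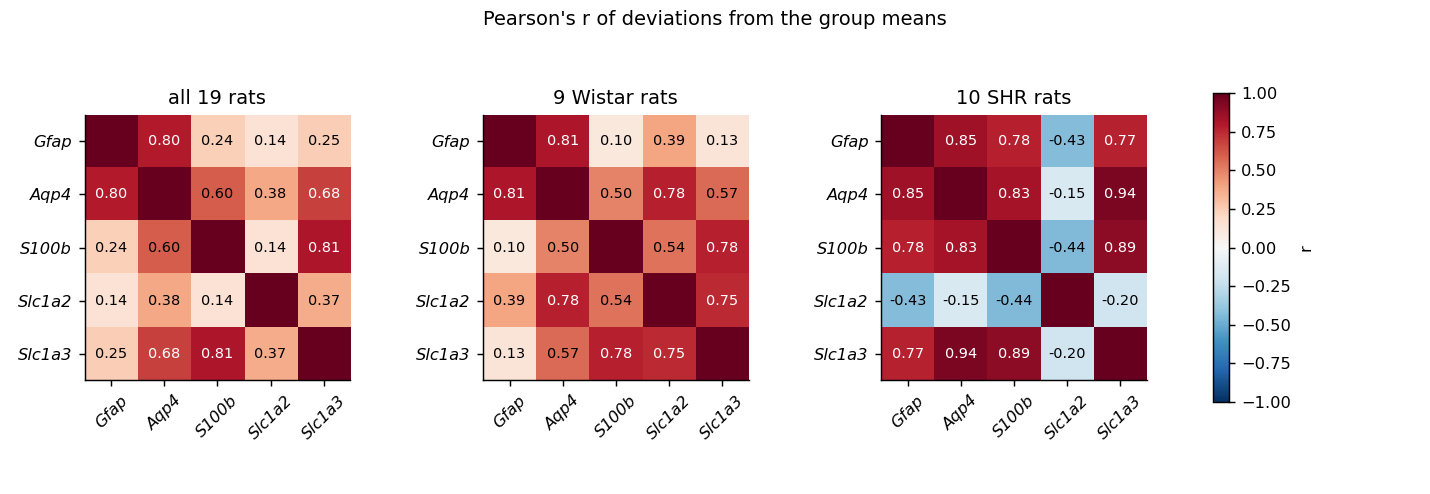
Pearson's r (color scale from -1 to 1, values printed) between the group-centered log2 levels of the 5 astrocyte marker genes over all 19 rats, over the 9 Wistar rats and over the 10 SHR rats. The row of Slc1a2 is negative in SHR rats and positive in Wistar rats, with males and females pooled in each. Without SHR female 3 (not drawn), r with Slc1a2 in SHR is 0.29 for Aqp4, 0.24 for Slc1a3, -0.06 for Gfap and -0.19 for S100b. In SHR the other 4 genes have r of at least 0.77 with each other, which falls to as low as 0.404 (Gfap and Slc1a3) without SHR female 3.

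None of the 5 genes was related to the replicate number, the library total or the first component past the threshold. The first component comes from expression itself and need not be technical. Against the replicate number, r ran from -0.448 for S100b (rho = -0.365, permutation p = 0.0762 and 0.163, adjusted p = 0.381 and 0.518) to 0.149 for Gfap. Against the library total, r ran from -0.197 to 0.247, and against the first component of all genes from -0.384 for S100b to 0.442 for Gfap (permutation p at least 0.214, adjusted p at least 0.67). With the linear trend of the replicate number removed, r was 0.833 for S100b and Slc1a3, 0.817 for Gfap and Aqp4 and 0.682 for Aqp4 and Slc1a3, and the median of the 10 pairs was 0.389. The part of the library total, the first component or the cell content of the punch in the correlations between genes was not tested.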

How the data were processed

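RNA of PVN punches from 19 rats was sequenced as stranded, polyadenylated libraries. The authors trimmed reads with Trimmomatic (Phred threshold of 30), used STAR for alignment to Rn7 and counted with featureCounts, and the deposited table holds the raw counts of 30560 genes. The annotation release and counting settings are not given in the sources used here. Groups and replicate numbers were taken from the labels.

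Genes with a mean above 5 median-of-ratios normalized counts were tested with the quasi-likelihood test of edgeR 4.0.16 (R 4.3.3) after TMM normalization, with Benjamini-Hochberg correction over all genes tested and a threshold of 0.05. Only the groups compared entered a fit, and all 4 entered the interaction. DESeq2 1.42.0 gave alternative Wald tests. Correlations used log2(CPM + 0.5) minus the group mean, Python 3.11.15, scipy 1.17.1 and 100000 two-sided permutations within groups. Figures used matplotlib 3.10.9. The edgeR steps were tested on simulated data. P-values measure the spread between these rats only.

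All 5 members were named, and no other gene, because the rule named genes of fixed marker lists only where a table pairs their symbols with Ensembl identifiers. None did, so the lists of other astrocyte, reactive and non-astrocyte markers were not analysed, and the tissue was not checked against markers. Promoter sequences come from RefSeq (GRCr8), matched by symbol for 5 of 5 genes, a different build from that of the counts. The members and lists were chosen with earlier results of these data known. Alternatives were another tool, Bonferroni adjustment, other factors and filters, the replicate number as a covariate or block, a fit of all groups, other scales, subsets of the rats and each library left out. The additive fit, the relations to library total and first component, the ratios and the motifs were added after seeing the data.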

Additional observations from a re-analysis of the deposited data

Results flagged for a closer look

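Gfap in Wistar females replicate 4 stood far from the other Wistar females, at 971 CPM (970.735) against 301 to 402 CPM. Its gap to the nearest rat was 0.85 of the range of the group, above the critical value of 0.71 for 5 samples. It was the 1 rat so found among 20 combinations of gene and group, and chance alone flags about 1 in 20.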

How the results depend on the processing

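In males the number of genes called fell from 3 to 1 (Aqp4) under Bonferroni adjustment with edgeR or DESeq2 and with all 4 groups in 1 fit, and was 2 to 4 with each library left out. In females it fell from 2 to 0 under Bonferroni with edgeR and to 1 (S100b) with DESeq2, and was 0 to 2 with each library left out. It was 0 in both comparisons of sex and in the interaction under every alternative run. Some signs turned. For Aqp4 in females against males in Wistar the log2 fold change was 0.00078 with DESeq2 (under either adjustment) and with median-of-ratios factors, 0.0352 with the replicate block and 0.0091 with the number as a covariate. The additive fit gave a single strain effect of -0.15 for Slc1a2 over both sexes, opposite in sign to females alone (0.10). With each library left out, the ranges that crossed 0 were, between the sexes in Wistar, -0.15 to 0.42 (Gfap), -0.088 to 0.044 (Aqp4) and -0.00022 to 0.12 (S100b), in SHR -0.033 to 0.11 (Gfap) and -0.063 to 0.0097 (Aqp4), and in the interaction -0.42 to 0.16 (Gfap) and -0.093 to 0.051 (Aqp4). Without Wistar female 4, Gfap gave -0.15 between the sexes in Wistar and 0.16 in the interaction. The median r of the 10 pairs was 0.774 in SHR alone. Over all 19 rats it was 0.376, and it ran from 0.283 to 0.554 with each of the 19 libraries left out. Causes were not tested. Counting error (at most 1.18%) was below the spread between rats in every group.

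Same-numbered rats did not deviate together in every pair (r -0.116 to 0.249 in males, -0.093 to 0.505 in females, -0.218 to 0.513 between the sexes in Wistar and -0.33 to 0.193 in SHR). The highest r in each comparison was that of replicate 5. Of 36 library matches, 13 were best with the same number, and the share that chance would give was not computed. The numbers were not taken as pairs, and an effect shared by rats of the same number over all genes was not tested. The replicate block called 3, 2, 0, 0 and 0 of the genes, and 32 genes of the whole table in the interaction against 0 without it.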
